A study of Homo sapiens with 2 samples.

Results

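Genes of fatty acid synthesis, fatty acid oxidation and lipid droplets were examined in Huh7 cells, an established line from a human hepatocellular carcinoma, whose CD133 had been reduced by RNA interference. The set was chosen by name and has 51 members, from the acetyl-CoA-producing enzymes to the electron transfer flavoproteins, of which 43 had a value on both arrays, out of 11579 named genes in the data. The control Huh7 cells carried an empty lentiviral vector (vector, 1 array), and the compared Huh7 cells carried a lentivirally delivered short hairpin RNA against CD133 (shCD133, 1 array). Both groups were therefore lentivirus-infected, and uninfected cells were not analysed here. CD133 is a membrane glycoprotein by which liver cancer stem cells are often marked, the series deals with its induction through STAT3, and the arrays address which transcripts differ when CD133 is low. Biotin-labelled cRNA made from total RNA was hybridised to Illumina bead arrays, and the brightness of a probe stands for the amount of its transcript. With 1 array per group there is no replicate error and no test, so every value below describes these 2 arrays. A hairpin was compared with an empty vector and not with another hairpin, so effects of CD133 loss and of hairpin expression cannot be told apart.

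In hepatocytes, fatty acids are built in the cytosol from citrate-derived acetyl-CoA, then elongated and desaturated in the endoplasmic reticulum, esterified stepwise onto glycerol and stored as triglyceride in lipid droplets. Lipases release them again, and after activation to acyl-CoA they are shortened by beta-oxidation in mitochondria and peroxisomes. The transcription factors SREBP-1c (gene SREBF1) and ChREBP (gene MLXIPL) drive the synthetic genes, and the nuclear receptor PPAR-alpha with its coactivator PGC-1alpha (gene PPARGC1A) drives the oxidative ones. Liver cancers often show high lipogenic enzyme expression.

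Values are the authors' deposited log2 intensities, and a difference is always the log2 value with shCD133 minus that with the vector, so that 1 unit is a 2-fold difference. The target gene PROM1, which encodes CD133, had a difference of -2.75 (6.72-fold lower), from 13.58 to 10.83. Of 12 hepatocyte markers 10 had a value, with summed intensities of 197496 with the vector and 179037 with shCD133. Albumin (ALB) was at 15.48 and 15.47 and alpha-fetoprotein (AFP) at 14.96 and 15.10. Of the 10 measured hepatocyte markers 2 were at least 2-fold lower with shCD133 (20%, against 8.26% of all named genes). They were the apolipoprotein gene APOA2 (14.78 to 12.97, -1.81) and the fibrinogen gene FGB (13.80 to 12.47, -1.32, its other probe -0.71). Of the same 10 markers 6 lay above 0 (60%, against 59.2% of all named genes) and 4 below. APOA1 was at 0.63 (11.67 to 12.30) and TTR at 0.35 (11.65 to 11.99). Of 6 adipocyte markers 2 had a value (ADIPOQ and LEP), both within 1 unit of the lowest value in the table, 6.65, on both arrays, with summed intensities of 337 and 306. Of 6 leukocyte markers 4 had a value (8442 and 8246 summed), without PTPRC and CD3E. Most of that sum came from LYZ (12.81 and 12.64, -0.17), whose other probe differed by 1.51, and CD14 was higher with shCD133 by 1.60 (8.32 to 9.92). CD68 was at 9.62 and 9.53 (-0.09, its other probes 0.005 and 0.42) and CD79A at 7.35 and 7.39 (0.04). Of 7 fibroblast and endothelial markers 4 had a value (741 and 879 summed), with COL1A1 at 7.77 and 8.52 (0.74). PDGFRB (0.03), DCN (0.07) and PECAM1 (-0.16) were within 1 unit of the lowest value on both arrays. The part of other cell types in the differences was not tested.

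Most of the 43 genes differed little. ACSL5, EHHADH and ELOVL2 were at least 2-fold lower with shCD133, none was at least 2-fold higher, and the other 40 lay between. The 3 lower genes are 6.98% of the measured set, against 8.26% of all named genes, and 2.08% of all named genes were at least 2-fold higher. The share of lower genes was thus near the background and is no result about the set. The median difference was 0.21 over the 43 genes and 0.11 over all named genes, and 27 of the 43 (62.8%) lay above 0, as did 59.2% of all named genes. At a 1.5-fold threshold 7 genes were lower (16.3% of all named genes) and 5 were higher (12.3% of all named genes). The differences ranged from -1.55 to 0.97.

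Without replicates, the spread that can be measured is that between probes for the same gene, which had an SD of 0.34 over the 2907 genes with more than 1 probe. It leaves out variation between cultures. The difference was larger than this SD in 24 of the 43 genes. In all 14 measured members with more than 1 probe, every probe differed in the same direction. The corresponding shares over all named genes were not calculated, so neither count is a result about the set. THRSP, SCD5, CD36, FABP1, ACSL3, LPIN3, MOGAT2 and PNPLA3 had no value and were not analysed here.

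**Figure D1:**
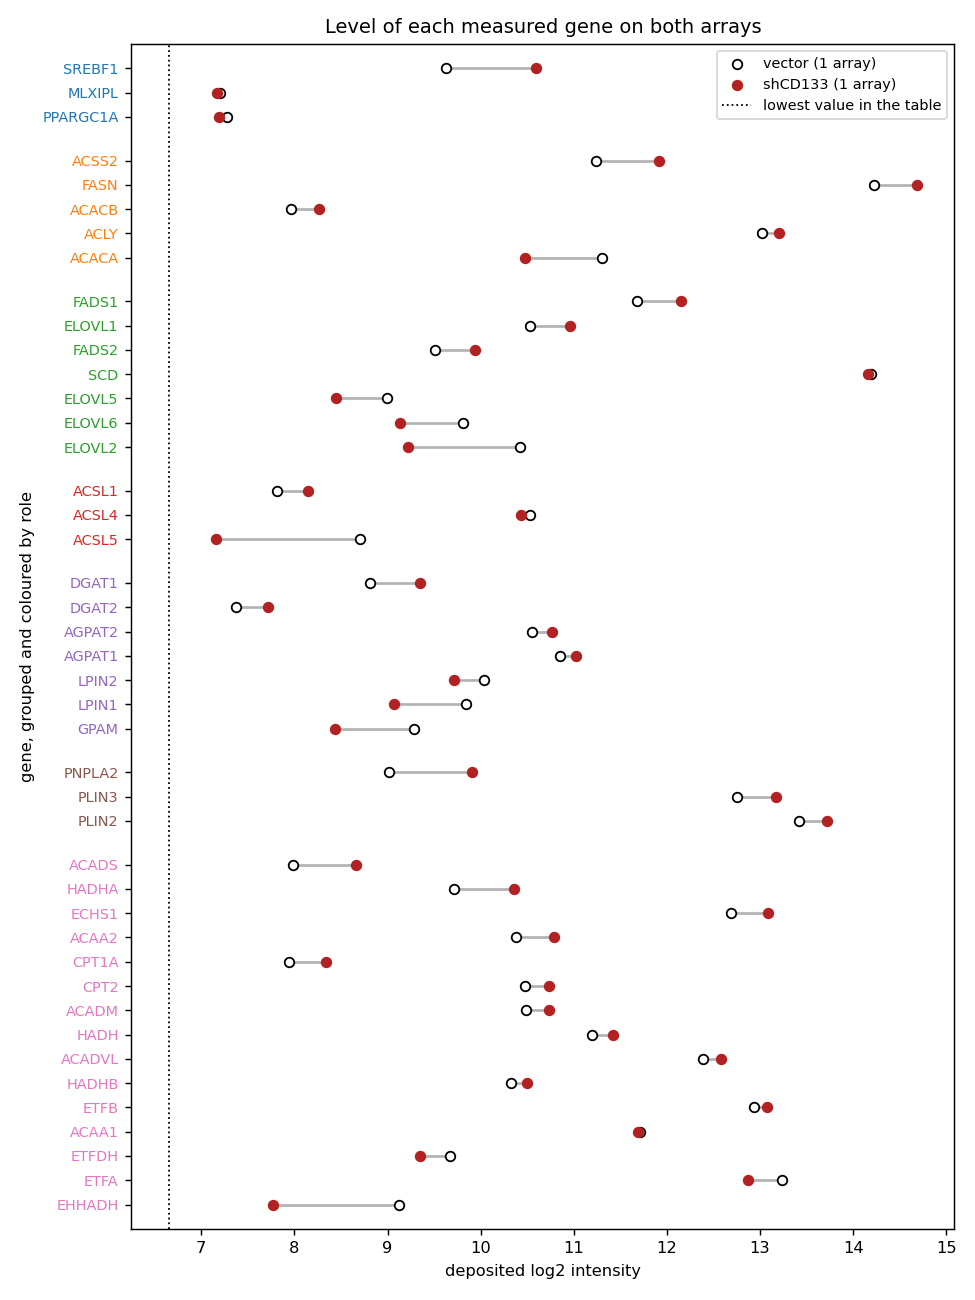
Deposited log2 intensity (x axis) of the 43 measured genes (y axis, grouped and coloured by role), with the vector array as open circles, the shCD133 array as filled circles and the lowest value in the table, 6.65, as a dotted line. ACSL5, EHHADH and ELOVL2 have the widest gaps to the left, SREBF1 and PNPLA2 the widest to the right, and MLXIPL and PPARGC1A sit beside the dotted line on both arrays. Levels of different genes come from different probes and are not comparable.

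The regulators were represented by 3 genes. SREBF1, the gene of the lipogenic factor SREBP-1, was at 9.63 with the vector and at 10.60 with shCD133. The difference of 0.97 (1.96-fold higher) was the highest of the 43 genes, and 2.41% of all named genes had a higher one. Its other probe, which is annotated to another SREBF1 transcript (NM_004176 rather than NM_001005291), was at 8.46 and 9.30, a difference of 0.84. Both SREBF1 probes were thus brighter on the shCD133 array by similar amounts. MLXIPL, the gene of the glucose-responsive factor ChREBP, was at 7.21 and 7.17, and PPARGC1A, the coactivator gene, was at 7.27 and 7.19. Both are within 1 unit of the lowest value on both arrays, where differences are compressed. Without detection calls, signal there could not be told from background.

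The table of RefSeq promoter sequences (build GRCh38.p14) held 37 of the 43 genes, and the 250 bases before the transcription start were searched on both strands for 4 short motifs bound by regulators of this pathway or by general promoter factors. TCACNCCAC, a form of the sterol regulatory element bound by SREBP, was found before a start of 2 genes, PNPLA2 and ACSL1, or in 3.39% of the 59 promoters listed for the 37 genes and 0.883% of all 35116 promoters. The E-box CACGTG, a form that USF and ChREBP-type factors bind, was found for ELOVL5, LPIN2, PLIN2 and PPARGC1A (6.78% of the listed promoters, 6.34% of all promoters). The CCAAT box, searched as CCAAT, was found for 13 genes (28.8% and 32.0%). The GC box GGGCGG, bound by SP1, was found for 32 genes (69.5% and 42.6%). None of the motifs contains another. A match is a string of letters and not a shown binding site, and a window without a match says nothing about the factor.

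The promoters below are those of the gene with the highest difference and of both genes with the sterol element. Capitals mark the GC box in SREBF1 (chr17:17836987-17837236, minus strand, 3 matches) and the sterol element, read on the opposite strand, in PNPLA2 (chr11:818664-818913, plus strand) and in ACSL1 (chr4:184805554-184805803, minus strand, 1 of 5 listed starts). Each is written 5′ to 3′ toward the start.
SREBF1: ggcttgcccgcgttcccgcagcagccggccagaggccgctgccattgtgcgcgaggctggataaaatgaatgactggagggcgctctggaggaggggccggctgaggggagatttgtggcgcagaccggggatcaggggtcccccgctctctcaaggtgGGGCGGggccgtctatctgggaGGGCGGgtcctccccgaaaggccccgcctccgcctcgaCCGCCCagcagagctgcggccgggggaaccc
PNPLA2: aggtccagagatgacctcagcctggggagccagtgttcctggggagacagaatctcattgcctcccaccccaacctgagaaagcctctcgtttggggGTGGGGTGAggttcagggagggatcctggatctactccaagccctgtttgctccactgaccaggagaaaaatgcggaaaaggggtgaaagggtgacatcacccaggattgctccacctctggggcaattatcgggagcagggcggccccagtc
ACSL1: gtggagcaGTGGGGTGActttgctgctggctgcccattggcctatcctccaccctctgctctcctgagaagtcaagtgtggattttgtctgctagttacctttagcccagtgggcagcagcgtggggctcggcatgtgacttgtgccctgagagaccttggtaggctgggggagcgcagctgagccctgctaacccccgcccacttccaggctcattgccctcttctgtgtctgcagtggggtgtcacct
In PNPLA2 the element ends 144 bases before the start, and in ACSL1 it ends 233 bases before. PNPLA2 differed by 0.88 and ACSL1 by 0.33. The window before the only listed start of SREBF1 itself held no such element, and any other SREBF1 start was not searched.

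Acetyl-CoA supply and fatty acid synthesis had 5 measured genes, 4 of them above 0 (80%, against 59.2% of all named genes), with a median of 0.29. ACSS2, which makes acetyl-CoA from acetate, differed by 0.68, from 11.24 with the vector to 11.91 with shCD133, and its other probes gave 0.54 and 0.65. ACLY, which cleaves citrate to acetyl-CoA, was at 13.02 and 13.20 (0.18). FASN, the multifunctional synthase that builds palmitate, was at 14.22 and 14.68 (0.46). These 3 genes were on the higher side with shCD133, by less than 2-fold. Between acetyl-CoA and FASN stand the acetyl-CoA carboxylases, which make malonyl-CoA. ACACA, the cytosolic form that feeds synthesis, was at 11.31 and 10.48, a difference of -0.83, and its other probe gave -0.74. ACACB, the form at the mitochondrial surface whose product restrains carnitine palmitoyltransferase, was at 7.97 and 8.26 (0.29). The 2 carboxylase genes therefore lay on opposite sides of 0, and ACACA was the only gene of synthesis below it.

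The elongases and desaturases, with 7 measured genes and a median of -0.04, were split. ELOVL2, which elongates long polyunsaturated fatty acids, differed by -1.21 (2.31-fold lower) on its only probe, from 10.43 with the vector to 9.22 with shCD133. ELOVL6, which extends palmitate to stearate, was at 9.81 and 9.13 (-0.68, its other probe -0.82). ELOVL5, which acts on polyunsaturated substrates earlier than ELOVL2, was at 8.99 and 8.45 (-0.54). These 3 elongases were thus dimmer with shCD133, whereas ELOVL1, which makes saturated and monounsaturated very long chains, was brighter, at 10.53 and 10.96 (0.43). The front-end desaturases FADS1, at 11.68 and 12.15 (0.47), and FADS2, at 9.51 and 9.94 (0.43), were also brighter. SCD, which introduces the double bond of oleate, was at 14.19 and 14.15 (-0.04), so the main desaturase of lipogenesis differed by less than the SD between probes of a gene. The ELOVL2 promoter (chr6:11044306-11044555, minus strand) is shown because this gene is 1 of the 3 past the 2-fold threshold. Capitals mark its 4 GC boxes, and it held none of the other motifs.
ELOVL2: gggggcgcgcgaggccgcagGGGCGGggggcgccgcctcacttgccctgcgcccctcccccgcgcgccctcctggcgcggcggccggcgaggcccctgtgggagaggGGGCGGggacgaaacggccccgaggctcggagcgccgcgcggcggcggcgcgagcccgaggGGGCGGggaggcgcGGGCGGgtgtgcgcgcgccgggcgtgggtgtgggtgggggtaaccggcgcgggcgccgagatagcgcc

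Uptake, binding and activation left 3 measured genes, all long-chain acyl-CoA synthetases, which activate fatty acids for every later use. ACSL5, the form found on mitochondria and endoplasmic reticulum, was at 8.71 with the vector and 7.16 with shCD133. Its difference of -1.55 (2.93-fold lower) was the lowest of the 43 genes, and 2.95% of all named genes had a lower one. Its other probe, annotated to transcript NM_203379 rather than NM_016234, was at 7.46 and 6.97, a difference of -0.49. The ACSL5 probes agree in direction and not in size, and 3 of the 4 values lie within 1 unit of the lowest value in the table. The ACSL5 difference was -1.02 with the mean over both probes, less than that of EHHADH (-1.35) or ELOVL2 (-1.21), and -2.89 with background subtracted. ACSL4, which prefers arachidonate, was at 10.52 and 10.43 (-0.09, its other probe -0.06), and ACSL1, the main form of liver, was at 7.82 and 8.15 (0.33).

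Glycerolipid assembly is a chain of 4 reactions, and its 7 measured genes had a median of 0.17. GPAM, the mitochondrial acyltransferase that starts the chain, was at 9.28 and 8.43, a difference of -0.85, while its other probe, at 7.83 and 7.36, gave -0.47. At the next step AGPAT1 was at 10.85 and 11.02 (0.17) and AGPAT2 at 10.55 and 10.76 (0.21, its other probes 0.34 and 0.38). The lipins, phosphatidate phosphatases that make diacylglycerol, were dimmer with shCD133: LPIN1 was at 9.85 and 9.07 (-0.77) and LPIN2 at 10.03 and 9.71 (-0.32). The acyltransferases that finish triglyceride were brighter, DGAT1 at 8.81 and 9.35 (0.54) and DGAT2 at 7.37 and 7.72 (0.35), with DGAT2 near the lowest value on the vector array. Within the set, the first and the third reaction therefore had their measured genes below 0, and the others had theirs above 0, all by less than 2-fold. Genes outside the set did not keep to this order. For the first reaction GPAT3 was at -0.45 but GPAT4 at 0.11, and for the second AGPAT5 was at -0.77. With the trend on gene length removed, AGPAT1 (-0.08) and AGPAT2 (-0.005) were no longer above 0, and the median of the 7 genes was -0.08. GPAM passed 2-fold with the trend on mean level removed (-1.01) and with background subtracted (-1.09), and DGAT2 differed by 0.76 with background subtracted.

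Lipid droplet genes had 3 measured members, all above 0, as were 59.2% of all named genes, with a median of 0.42. PLIN2, the main coat protein of hepatocyte droplets, was at 13.42 with the vector and 13.71 with shCD133 (0.29, its other probe 0.31). PLIN3, a coat protein that also resides in the cytosol, was at 12.75 and 13.17 (0.42). PNPLA2, which encodes adipose triglyceride lipase, the enzyme that takes the first fatty acid off triglyceride, was at 9.02 and 9.90, a difference of 0.88 (1.84-fold higher). The coat genes differed by about as much as probes of the same gene disagree, and the lipase gene by more than that.

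**Figure D2:**
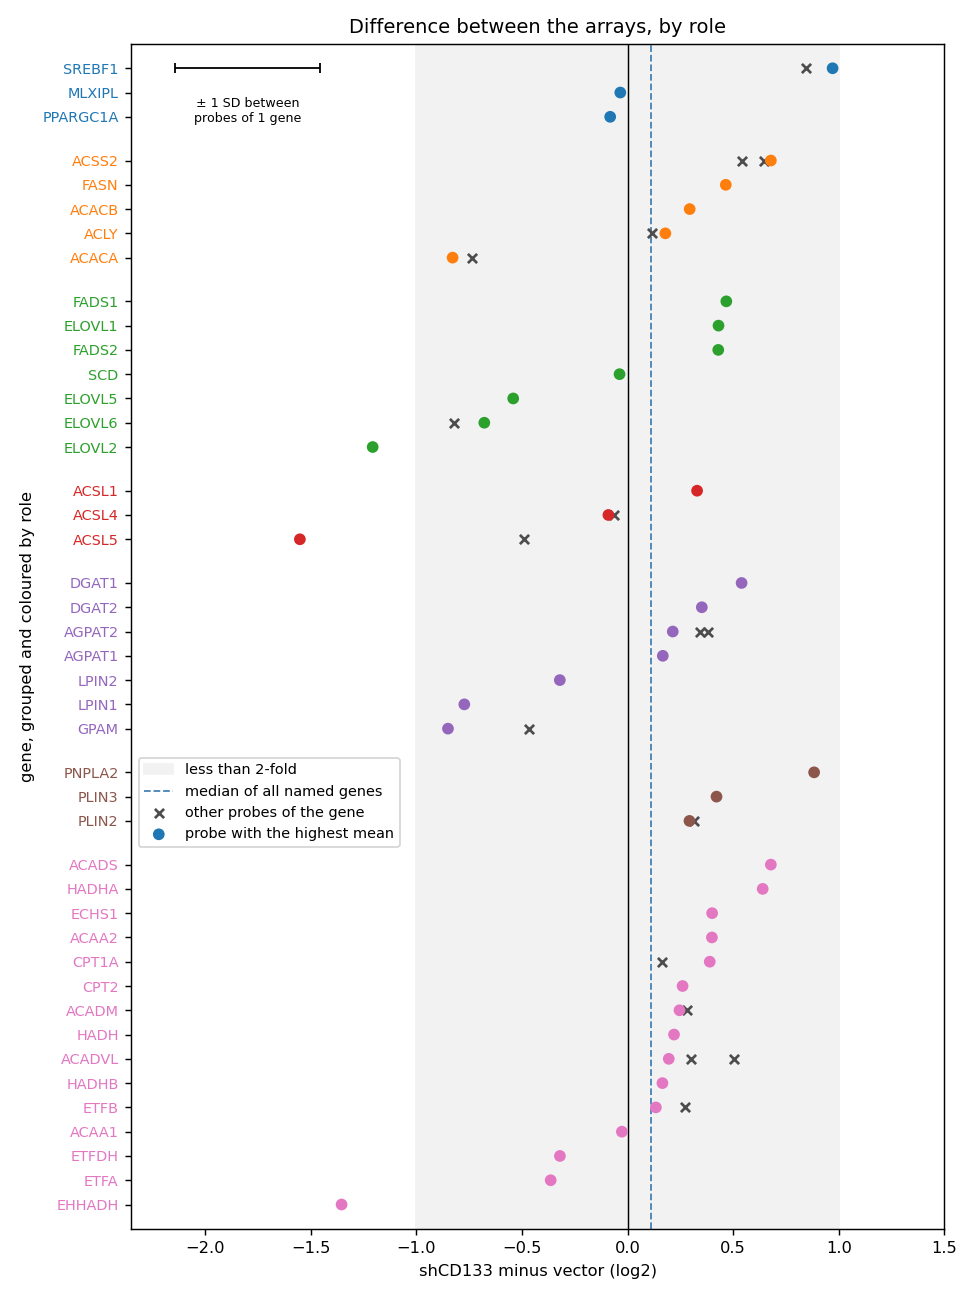
Difference shCD133 minus vector (x axis, log2) of the 43 measured genes (y axis, grouped and coloured by role). Filled points are the probe used, crosses are the other probes of the gene, the shaded band is a difference of less than 2-fold, the dashed line is the median of all named genes (0.11), and the bar at the upper left shows the SD of 0.34 between probes of a gene. Only ACSL5, EHHADH and ELOVL2 lie outside the band, and no cross lies on the other side of 0 from its point.

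Beta-oxidation was the largest group, with all 15 genes measured and a median of 0.22. Of these genes 11 lay above 0 (73.3%, against 59.2% of all named genes). Entry into mitochondria is controlled by the carnitine palmitoyltransferases. CPT1A, the rate-controlling outer-membrane enzyme, was at 7.95 with the vector and 8.33 with shCD133 (0.39, its other probe 0.16), and CPT2, on the inner membrane, was at 10.48 and 10.74 (0.26). The acyl-CoA dehydrogenases of the set, which take the first pair of electrons, were all on the higher side. The exception was ACADVL with the trend on gene length removed, at -0.06. ACADVL, for very long chains, was at 12.38 and 12.58 (0.19, its other probes 0.30 and 0.50), ACADM, for medium chains, at 10.48 and 10.73 (0.25, its other probe 0.28), and ACADS, for short chains, at 7.98 and 8.66 (0.68). Outside the set, ACADSB (-0.59, near the lowest value with shCD133) and ACAD11 (-0.16) lay below 0. ACAD8 (0.57), ACAD9 (0.18) and ACAD10 (0.72) lay above it.

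The later mitochondrial steps lay in the same range. The trifunctional protein, which handles long chains, is made of the subunits HADHA, at 9.72 and 10.36 (0.64), and HADHB, at 10.33 and 10.49 (0.16). ECHS1, the short-chain hydratase, was at 12.69 and 13.09 (0.40), HADH, the dehydrogenase of the third step, at 11.20 and 11.42 (0.22), and the thiolase ACAA2 at 10.38 and 10.78 (0.40). All of these later enzymes were brighter with shCD133, by less than 2-fold, except that HADHB lay at -0.002 with the trend on mean level removed. The electron acceptors were not uniform: ETFA was at 13.24 and 12.87 (-0.36), its partner subunit ETFB at 12.94 and 13.07 (0.13, its other probe 0.27, -0.02 with the length trend removed), and ETFDH, which passes the electrons to ubiquinone, at 9.67 and 9.35 (-0.32).

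HADHA and HADHB are encoded head to head. Their listed starts on chromosome 2 are separated by 306 bases, and 194 bases belong to the upstream window of both, identical after reverse complementation. The sequence is shown from the HADHA side (chr2:26244633-26244882, minus strand), with its GC box in capitals.
HADHA: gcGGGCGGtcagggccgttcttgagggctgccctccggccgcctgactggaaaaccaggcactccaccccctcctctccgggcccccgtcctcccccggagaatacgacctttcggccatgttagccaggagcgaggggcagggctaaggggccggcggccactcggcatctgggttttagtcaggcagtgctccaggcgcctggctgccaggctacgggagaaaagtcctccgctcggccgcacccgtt
Although both genes are read from this interval, HADHA differed by 0.64 and HADHB by 0.16, and each gene had only 1 probe.

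Both peroxisomal enzymes of the set lay below 0, ACAA1 only just. EHHADH, the peroxisomal bifunctional enzyme that combines the hydratase and dehydrogenase steps and is a known PPAR-alpha target in rodent liver, was at 9.12 with the vector and 7.77 with shCD133. The difference of -1.35 (2.56-fold lower) was on its only probe, and 4.42% of all named genes had a lower one. With background subtracted it was -1.95. ACAA1, the peroxisomal thiolase, was at 11.71 and 11.68 (-0.03). Peroxisomal genes outside the set lay on both sides of 0. ACOX3 was at 0.68, PECR at 0.60 and DECR2 at 0.56, while CROT was at -1.16, HSD17B4 at -0.46 and ACOX2 at -0.34. The mitochondrial counterparts HADHA and ACAA2 lay at 0.64 and 0.40, and no test of the difference between organelles can be made with 1 array per group.

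The members differ in gene length, and in these data longer genes tended to be lower with shCD133. Genomic length was taken from the RefSeq table of GRCh38.p14. Of the 27 measured members longer than the median gene (27.4 kb), 14 were below 0, and their median difference was -0.03. Of the 16 members no longer than that, 2 were below 0 (SCD and ACAA1), and their median was 0.35. The shares below 0 were 51.9% of the longer and 12.5% of the shorter members, against 54.5% and 27.0% of all named genes. The corresponding medians over all named genes were -0.06 and 0.23. At least 2-fold lower were 13.7% and 2.83% of those genes, and 11.1% and 0% of the members. Length and difference had a Spearman's rho of -0.56 over the 43 members and of -0.34 over 11572 named genes with a length, given as descriptions over genes measured on the same 2 arrays.

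The 3 genes past the threshold were among the longer ones, ACSL5 with 54.3 kb, EHHADH with 63.4 kb and ELOVL2 with 63.5 kb. With the trend on gene length removed they differed by -1.51, -1.28 and -1.13, and were still at least 2-fold lower. ACACA is 322 kb long and differed by -0.57 after removal of the trend, LPIN1 (150 kb) by -0.55 and GPAM (77.8 kb) by -0.74. ACSS2 and HADHA, with 53.0 kb and 54.0 kb, lay at 0.72 and 0.68. Among genes of similar length the members thus lay on both sides of 0.

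**Figure D3:**
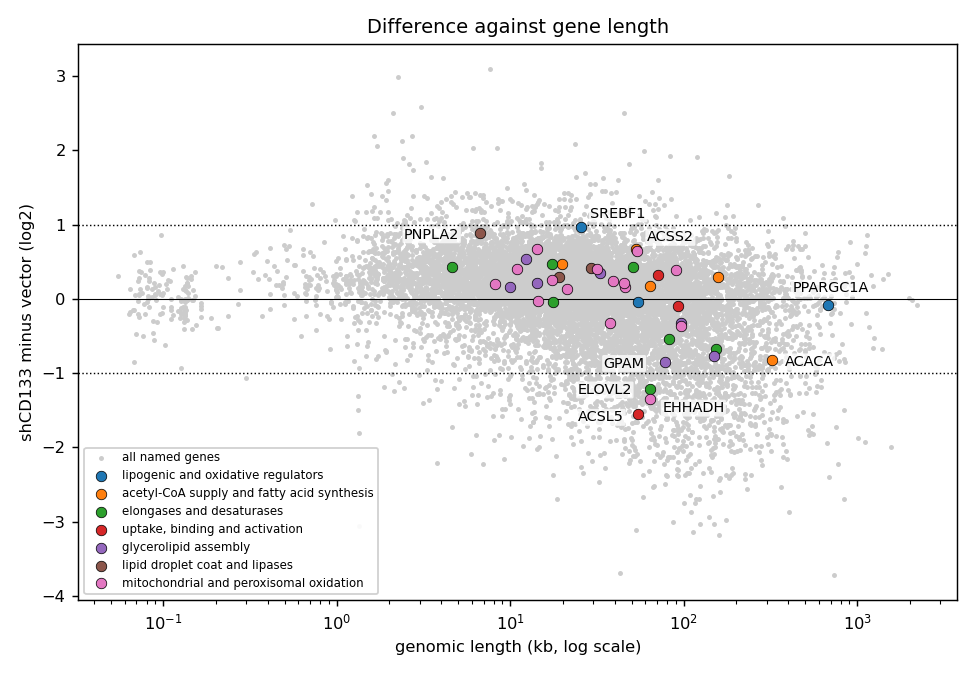
Difference shCD133 minus vector (y axis, log2) against genomic length (x axis, kb, log scale) for all named genes with a length (grey) and the 43 measured members (coloured by role), with dotted lines at 2-fold. The 16 members no longer than 27.4 kb lie between -0.04 and 0.97, and the longer ones spread from -1.55 to 0.68.

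Neighbouring pathway genes outside the set were read in 8 lists that hold 150 genes, of which 107 had a value. Their median difference was 0.23, with 8 genes at least 2-fold lower (7.48%, against 8.26% of all named genes) and 1 at least 2-fold higher (0.935%, against 2.08%). These shares too were near or under the background.

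Other beta-oxidation and carnitine genes (21 of 25 measured) had a median of 0.30. CROT, the peroxisomal carnitine octanoyltransferase, was at 8.87 and 7.72 (-1.16), and CRAT, the carnitine acetyltransferase, was at 8.54 and 9.31 (0.77). Other elongation, desaturation and synthesis genes (15 of 19) had a median of 0.13. HACD2, the dehydratase of the elongation cycle that works with the ELOVL enzymes, was at 11.55 and 9.53 (-2.02, 4.05-fold lower), and its other probe gave -1.90. ACSS1, the mitochondrial acetyl-CoA synthetase, was at 7.33 and 8.32 (0.99), starting near the lowest value.

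Other glycerolipid genes (10 of 15) had a median of 0.22, with LCLAT1, a lysocardiolipin acyltransferase, at -1.36 (9.42 to 8.06, its other probes -1.59 and -0.51) and MBOAT7, a lysophosphatidylinositol acyltransferase, at 0.90 (9.36 to 10.26). Other droplet and lipolysis genes (14 of 22) had a median of 0.17. There CIDEC, a droplet fusion protein, was at 8.97 and 7.31 (-1.66), but its other probe gave -0.16. LDAH, a droplet-associated hydrolase, was at 8.71 and 7.58 (-1.13). With the trend on gene length removed LDAH (141 kb) lay at -0.91, no longer past 2-fold. CIDEC and LDAH were both within 1 unit of the lowest value on the shCD133 array. The coat gene PLIN5 of this list, at 8.01 and 7.48 (-0.54), lay on the other side of 0 from PLIN2 and PLIN3. PLIN5 too was within 1 unit of the lowest value on the shCD133 array. Of the 14 measured genes of the list 10 lay above 0 (71.4%, against 59.2% of all named genes) and 4 below. The higher ones included MGLL at 0.93 (its other probe 0.94), HILPDA at 0.86 and PNPLA6 at 0.79. Other uptake, binding and activation genes (13 of 25) had a median of 0.14, with ACSF2 at 0.90 (7.99 to 8.90, its other probe 1.12) and ACBD3 at -0.89 (10.25 to 9.36).

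Of the PPAR, LXR and SREBP regulators (18 of 23 measured, median 0.30), 15 lay above 0 (83.3%, against 59.2% of all named genes). Above the all-gene median of 0.11 lay 12 of the 18. INSIG1, a sterol-regulated protein that retains SREBP in the endoplasmic reticulum, was at 10.56 and 11.59 (1.03, its other probe 0.73). MBTPS2, the protease that makes the final cut in SREBP activation, was at 9.95 and 8.19 (-1.76, its other probe -1.27), and the nuclear receptor coactivator NCOA1 was at 9.83 and 7.86 (-1.98). The SREBF1 transcript and that of the retention factor INSIG1 were thus higher while that of the protease MBTPS2 was lower. Other genes of SREBP processing in this list were INSIG2, at 0.60, MBTPS1, at 0.09 (its other probe 0.18), and SCAP, at 0.12. PPARA, the gene of PPAR-alpha, was at 7.22 and 7.30 (0.08), within 1 unit of the lowest value on both arrays. PPARG was at 12.01 and 11.38 (-0.63, its other probe -0.24) and PPARD at 7.79 and 8.17 (0.37, its other probe 0.13). PPAR target genes outside the set (9 of 13) had a median of 0.46 and none past 2-fold, with the thioesterase ACOT1 at 0.91 (8.73 to 9.65) and the mitochondrial carrier UCP2 at 0.64 (9.86 to 10.51). The value of ACOT1 is uncertain because ACOT2 is nearly identical to it. Of the 9 targets 6 lay above 0 (66.7%, against 59.2% of all named genes). CREB3L3 (-0.53), VNN1 (-0.34) and TXNIP (-0.19) lay below it. AMPK genes (7 of 8, median -0.02) held PRKAA1, a catalytic subunit of the kinase that phosphorylates the acetyl-CoA carboxylases, at -1.22 (10.40 to 9.19, its other probe -1.21), and PRKAB2, a regulatory subunit, at -0.77 (8.33 to 7.56). Of these AMPK genes 3 lay above 0 (42.9%, against 59.2% of all named genes). They were STK11 at 0.60, CAMKK2 at 0.44 (its other probe 0.17) and PRKAB1 at 0.34.

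**Figure D4:**
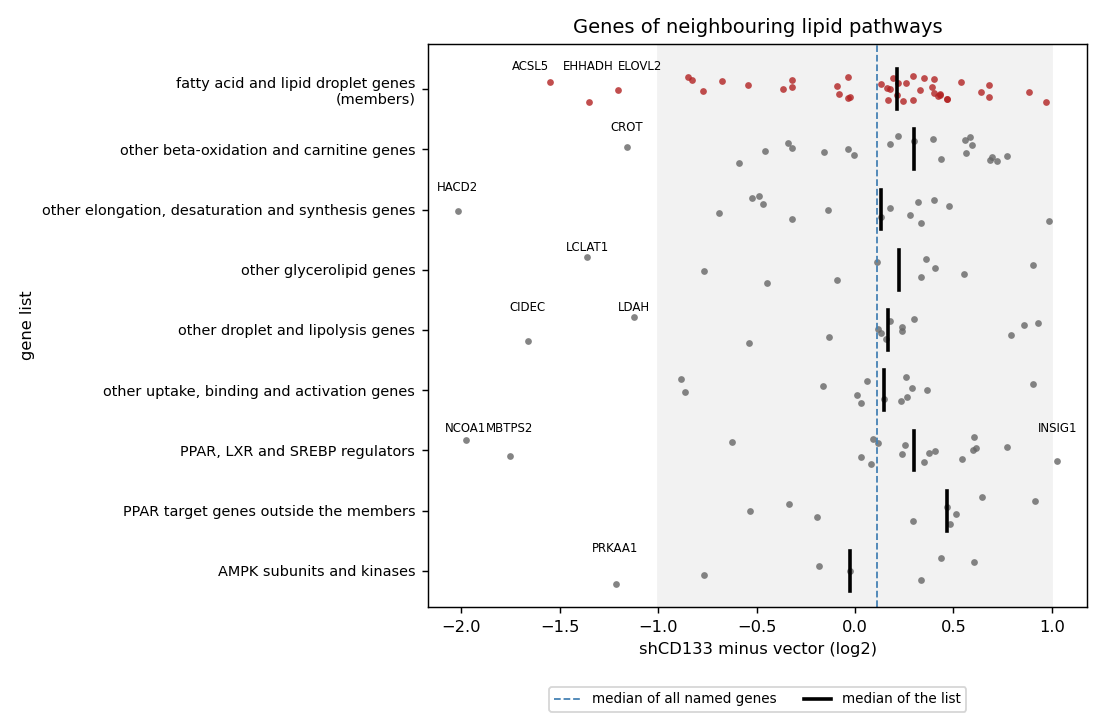
Difference shCD133 minus vector (x axis, log2) of each measured gene (points) in the set and in 8 neighbouring gene lists (y axis), with the median of each list as a black bar, the median of all named genes (0.11) as a dashed line and the range of less than 2-fold shaded. Genes at least 2-fold different are named, and of the 12 points outside the shaded range only INSIG1 (1.03) lies on the higher side.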

How the data were processed

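Expression was read on 1 Illumina bead array per group. The authors deposited log2 intensities; their base is not stated and was read as 2 from the range, 6.65 to 15.6, and GenomeStudio 2011.1 is named, per the submitters' processing notes, without its role. Sorted, the 2 columns of values are equal to within 0.00044, as after quantile normalization, which forces both arrays to the same distribution. Of 47323 deposited probes 19665 had a value on both arrays, and the filter behind this is not stated. A table of non-normalized signals was not used, because its 4 value columns match neither sample's labels, so no detection calls were available. Precision is limited by the number of arrays.

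Probes were named from a platform annotation of 2016, updated by gene ID through RefSeq (15197 of the 15205 probes with 1 symbol matched). Of the rest, 4458 had no symbol and 2 had several. A gene took its probe with the highest mean, and a log2 difference of 1 was counted as different. The rule named every member, PROM1, and in each neighbouring list the 2 largest differences and any 2-fold one. The cell type markers, PLIN5 and the other list genes beyond these were named outside it, after their values were seen. The members and lists were chosen with earlier results of these data known. Trends with mean level and gene length were lowess fits (statsmodels 0.14.6, span 0.3). Background subtraction took 99.5 intensity units off, with a floor of 16. The calculation was tested on simulated data. No paired analysis was possible because each group has 1 array.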

Additional observations from a re-analysis of the deposited data

How the results depend on the processing

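The median difference over the measured genes was 0.21, and it was 0.26 with the mean over a gene's probes, 0.10 centred on the median gene, 0.10 with the trend on mean level removed, 0.15 with the trend on gene length removed, 0.23 with background subtracted and 0.22 for genes with a mean log2 value of 8 or more. It stayed 0.06 to 0.15 above the median of all named genes in each. At 1.5-fold in place of 2-fold, 7 genes were lower and 5 higher. With background subtracted 2 genes, SREBF1 and PNPLA2, were at least 2-fold higher. GPAM was also at least 2-fold lower there and with the level trend removed, which gave 4 lower genes. ACSL5 dropped out of the genes with a mean of 8 or more, which left 2 lower genes. EHHADH and ELOVL2 were lower in all 6 alternatives that kept the 2-fold threshold. The median of the regulators was 0.97 under that filter, because SREBF1 alone remained. Medians of 3 groups changed sign: glycerolipid assembly (0.17) was at -0.08 with the length trend removed and for genes with a mean of 8 or more, the regulators (-0.03) were at 0.17 and uptake and activation (-0.09) at 0.05 with the length trend removed. No difference past 2-fold changed sign. No paired analysis was possible because each group has 1 array, and for the same reason no replicate could be left out. Values near the lowest intensity are compressed, and no detection call was available.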
